A study of Mus musculus with 12 samples.

Results

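The amino acid transporters described here are 55 genes of 7 solute carrier families of the mouse, Slc1, Slc3, Slc6, Slc7, Slc36, Slc38 and Slc43. The 7 families were picked with earlier results of these data known, and within them membership went by symbol, not by value: every gene whose name in the array's annotation is one of these family names followed by the letter a and a number. The 55 genes were read by 87 probes, out of 16969 named genes and 38784 probes on the array. Family membership does not fix the substrate. Slc6 also holds the carriers of noradrenaline, dopamine, serotonin, creatine and taurine, and Slc43a3 encodes a carrier of purine nucleobases.

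RNA came from mouse 3T3 cells, an established fibroblast line, in 4 groups of 3 arrays: a control group and groups treated with 10 nM, 100 nM and 1 µM of Shld1. This synthetic small molecule binds a destabilizing domain derived from FKBP12, and the series title names its effect on 3T3 cells as the subject. Each array set a sample in Cy5 against a Stratagene mouse reference RNA in Cy3, and the dyes were never exchanged. The labels used here state no treatment time, fusion protein, clone or vehicle. They also leave unsaid whether replicates were separate cultures, so p-values rest on the spread between these arrays, which may be technical. Each value is the log ratio of the sample to the reference, taken as base 2 and centred on the median of its array. The dyes, together with fibroblast and leukocyte genes, gave the direction. With the opposite direction, every "higher" against the reference would read "lower". A ratio of 0 is the median probe of the array, and a ratio says nothing of how abundant a transcript is, so the genes are not ranked by abundance.

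On the 12 arrays, 13.3% to 21.0% of all probes were blank, and correlations between arrays ran from 0.656 to 0.846. Of the member probes' values, 13.4% were blank in controls and 13.8% at each dose. Of the 12 fibroblast markers tested, 9 were higher than the reference in controls and 1, Pdgfra, was lower, while all 6 leukocyte markers tested were lower (limma, Benjamini-Hochberg). Over all tested genes, 26.5% were higher and 19.6% lower. These 2 lists helped to set the direction of the ratio and are not independent evidence of it. The number of arrays limits the precision.

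Amino acids cross the plasma membrane through carriers of overlapping specificity. Sodium-coupled carriers load the cell: Slc38 and Slc6 members with small neutral amino acids, and Slc1 members other than Slc1a4 and Slc1a5 with glutamate. Slc1a4 and Slc1a5 are sodium-dependent exchangers of small neutral amino acids, with glutamine among those of Slc1a5. The loaded amino acids are then exchanged for others, such as leucine or cystine, by Slc7 light chains that reach the surface bound to a heavy chain, Slc3a2 or Slc3a1. Slc7 also holds cationic carriers that need no heavy chain, Slc36 members use a proton gradient, and Slc43a2 is a facilitated carrier of large neutral amino acids. When amino acids are short, the kinase GCN2 raises ATF4, a transcription factor that binds amino acid response elements in genes such as Asns and induces several carriers.

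The core letters of such an element, TGATGNAA or its reverse complement TTNCATCA, were searched on both strands of the RefSeq promoters of GRCm38.p6, from 250 bases before to 50 after the annotated start. RefSeq windows were found for 38 of the 55 transporters, and 3 of the 38 (7.89%) held a match: Slc7a11, Slc1a4 and Slc7a7. Over all 27025 genes with a window the share was 4.51%, and over the 26 genes with a window in a list of GCN2 and ATF4 response genes it was 30.8% (8 genes). Stretches of the 3 transporter windows are shown, with Asns for comparison, because they are the members whose sequence could be set against that response. Each sequence runs 5′ to 3′ on the gene's strand, and capitals mark the match.
Slc7a11, chr3:50443633-50443699, minus strand: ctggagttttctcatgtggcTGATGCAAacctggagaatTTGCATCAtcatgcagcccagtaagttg
Slc1a4, chr11:20332690-20332737, minus strand: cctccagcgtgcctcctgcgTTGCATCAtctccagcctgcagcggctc
Slc7a7, chr14:54417918-54417952, minus strand: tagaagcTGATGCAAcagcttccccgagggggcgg
Asns, chr6:7693205-7693252, minus strand: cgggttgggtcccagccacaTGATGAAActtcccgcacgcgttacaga
Slc7a11 held a match on each strand, beginning 66 and 47 bases before its start. Slc7a7 has 2 annotated starts with overlapping windows. The match shown begins 1 base before one start, and so spans it, and begins 243 bases before the other. A second match, TGATGAAA, begins 141 bases before the first of these starts and is outside the stretch shown. A match is a description of these letters, not a bound site. The values of these genes are given with their families, and Asns had a control mean of -0.050 ± 0.11 (SD, n = 3) and a mean of 0.0052 ± 0.17 (n = 3) at 1 µM.

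In control cells the transporters lay on both sides of the reference. Of 44 tested members, 7 were higher than the reference (15.9%) and 9 lower (20.5%), where 26.5% and 19.6% of all 14523 tested genes were (limma, adjusted p under 0.05). The share of higher members was below the background and that of lower members close to it. Centring mattered to this split: with the ratios as deposited, 6 members were higher and 16 lower, 27.3% of the calls against 43.8% after centring, and for all genes the share of higher calls moved from 57.5% to 40.5%. That setting moved the median gene from 0.034 to -0.12, and 7 further members then passed as lower: Slc3a2, Slc6a18, Slc7a2, Slc7a3, Slc7a9, Slc36a1 and Slc43a2. The median member lay at -0.16, with 26 of 44 below 0 (59.1%), against 47.4% of all genes. Only 2 members were beyond a 2-fold excess over the reference (log2 above 1) and 2 beyond a 2-fold deficit, together 4 of 44, against 12.5% of all genes.

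**Figure D1:**
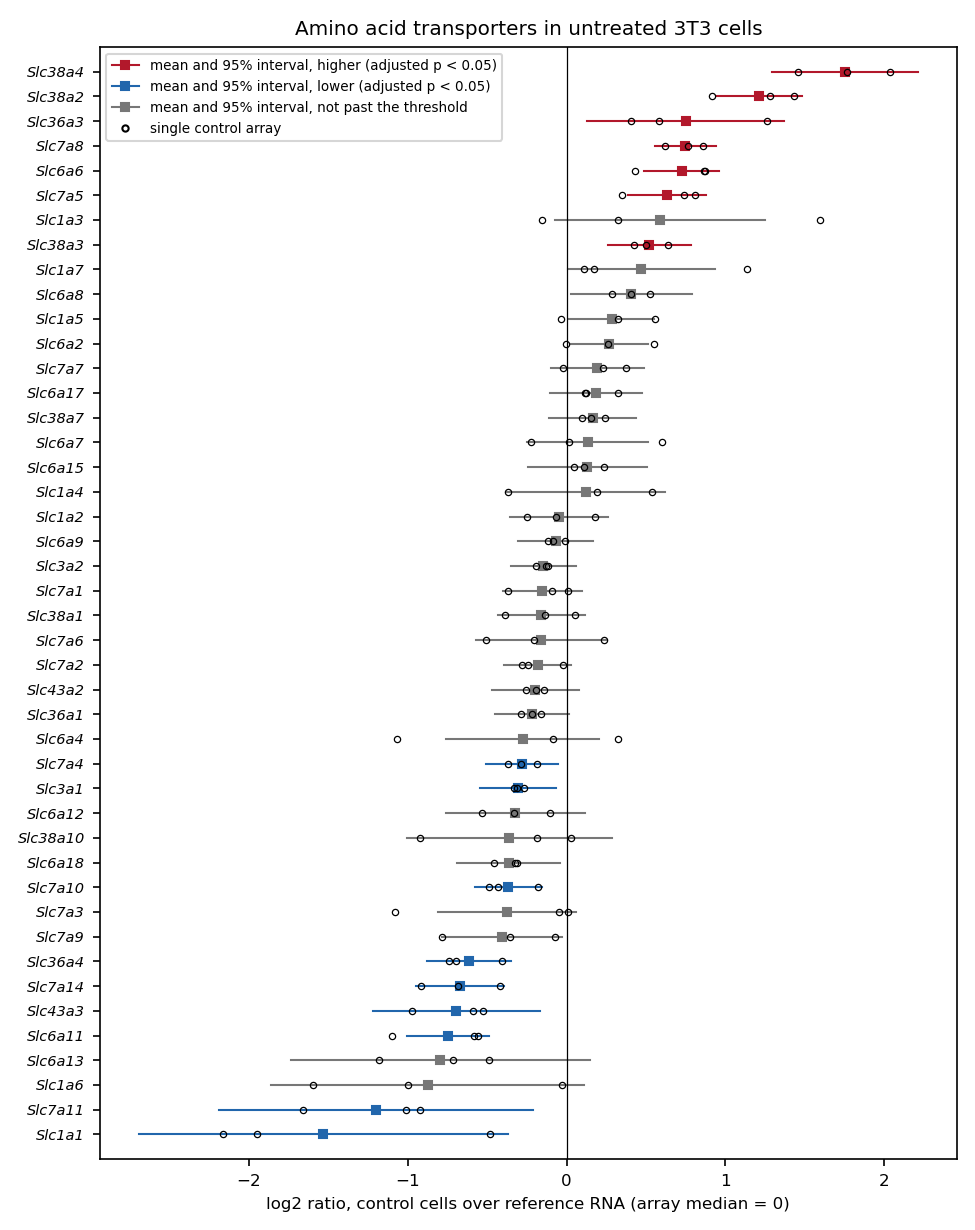
Log2 ratio of control 3T3 cells over the reference RNA for the 44 tested transporters, ordered by mean. Squares are means with 95% intervals from limma, red for 7 higher and blue for 9 lower members, and open circles are the 3 control arrays; Slc38a4 at 1.75 is highest and Slc1a1 at -1.53 lowest.

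The sodium-coupled neutral carriers of the Slc38 family held the members furthest above the reference. Slc38a4, which encodes the system A carrier SNAT4, read 2.04, 1.76 and 1.46 on the control arrays. Its mean, 1.75 (SE 0.21, adjusted p = 6.6e-05, limma), was a 3.37-fold excess over the reference, and all 12 arrays of the study were above 0. Slc38a2, which encodes SNAT2, the system A carrier that many cultured cells raise when amino acids are short, read 1.43, 1.28 and 0.92. All 3 control arrays were high, and the mean was 1.21 (SE 0.12, adjusted p = 2.4e-05, limma). Slc38a3, the system N carrier SNAT3 known from liver, kidney and brain, was nearer the reference at 0.50, 0.42 and 0.64, and passed as higher too (0.52, SE 0.12, adjusted p = 0.0043, limma).

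Not every Slc38 member was high. Slc38a1 (SNAT1, also of system A) had a control mean of -0.16 ± 0.22 (SD, n = 3), Slc38a7 (a lysosomal member) 0.16 ± 0.074 (n = 3) and Slc38a10 -0.36 ± 0.50 (n = 3), and none of the 3 passed. The family median over its 6 tested members was 0.34, the highest of the 7 families.

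Among the exchangers, the gene means of the light chains of leucine and other large neutral amino acids were above the reference while their heavy chain was not called. Slc7a5 encodes LAT1, the main leucine exchanger of dividing cells, and its control arrays read 0.74, 0.81 and 0.35, mean 0.63 (SE 0.11, adjusted p = 0.00084, limma). Slc7a8 encodes LAT2, an exchanger of wider substrate range, and read 0.62, 0.76 and 0.86, mean 0.75 (SE 0.089, adjusted p = 6.3e-05). That mean averages 2 probes that disagree, at 1.54 and -0.044. Fitted alone, the first passed as higher (adjusted p = 1.5e-06, limma) and the second did not pass (adjusted p = 0.81). Slc7a5 and the averaged value of Slc7a8 were above 0 on all 12 arrays. Slc3a2 encodes the heavy chain 4F2hc (CD98) that brings both light chains to the surface, and read -0.13, -0.11 and -0.20 in controls. That was just below the median probe on each control array, by a mean that did not pass (-0.15, SE 0.094, adjusted p = 0.22), though with the ratios as deposited it was lower at -0.30 (adjusted p = 0.031).

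Slc7a11 encodes xCT, the light chain that imports cystine in exchange for glutamate and so feeds glutathione synthesis. It was lower than the reference, at -1.66, -1.01 and -0.92 in controls (mean -1.20, SE 0.45, adjusted p = 0.047, limma). All 3 control arrays were well below 0, but the arrays of all groups spread from -3.25 to 0.20. The call passed in 12 of 21 alternative settings and was lost without any single control array (without control replicate 1, adjusted p = 0.21).

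Of the other light chains, Slc7a10 (Asc-1, a carrier of small neutral amino acids including D-serine) was lower, at -0.37 (SE 0.097, adjusted p = 0.0094, limma), a call lost without control replicate 2 (adjusted p = 0.071) or 3 (adjusted p = 0.055). Slc7a6 and Slc7a7, the y+LAT exchangers of cationic for neutral amino acids, had control means of -0.16 ± 0.37 (SD, n = 3) and 0.19 ± 0.20 (n = 3), and neither passed. Of the 3 Slc7a7 probes, that at 0.99 passed as higher when fitted alone (adjusted p = 0.00055, limma), and those at -0.021 and -0.38 did not. The kidney cystine system pairs the heavy chain Slc3a1 (rBAT) with the light chain Slc7a9. Slc3a1 was lower at -0.30 (SE 0.11, adjusted p = 0.039), and Slc7a9 had a mean of -0.40 ± 0.36 (n = 3) with adjusted p = 0.074. Of the 2 Slc7a9 probes, that at -0.695 passed as lower when fitted alone (adjusted p = 0.0052, limma), and that at -0.11 did not. The call of Slc3a1 was lost without any single control array (adjusted p 0.095 to 0.12).

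The cationic carriers of arginine and lysine were at or below the reference. Slc7a1 encodes CAT1, the widely expressed one, and its control arrays read 0.0070, -0.37 and -0.092 (mean -0.15, SE 0.11, adjusted p = 0.30, limma). That mean averages 2 probes on opposite sides of 0, at 0.21 and -0.51. Fitted alone, the second passed as lower (adjusted p = 0.017, limma) and the first did not pass (adjusted p = 0.27). Slc7a2 (CAT2) and Slc7a3 (CAT3) averaged -0.18 ± 0.14 (SD, n = 3) and -0.37 ± 0.61 (n = 3), and neither passed. Of the Slc7a2 probes averaged, that at -0.56 passed as lower when fitted alone (adjusted p = 0.028, limma), and those at -0.063 and 0.082 did not. Slc7a14, a related protein of lysosomes, was lower at -0.92, -0.68 and -0.42 (mean -0.67, SE 0.13, adjusted p = 0.0013). Slc7a4, a CAT-like protein without a settled transport function, was lower by a small margin (-0.28, SE 0.10, adjusted p = 0.044), a call kept in 12 of 21 settings and lost without any single control array (adjusted p 0.074 to 0.18). Of its 3 probes, that at -0.81 passed as lower when fitted alone (adjusted p = 0.00043, limma), and those at -0.29 and 0.25 did not.

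The Slc1 family, carriers of glutamate in neurons and glia plus the exchangers ASCT1 and ASCT2, had 1 called member. Slc1a1 encodes EAAT3, the glutamate and cysteine carrier of neurons and kidney, and read -2.16, -1.94 and -0.48 in controls. The third array lay far from the other two, and the mean was -1.53 (SE 0.53, adjusted p = 0.034, limma), the lowest of all members. Without control replicate 1 the adjusted p was 0.18, and without control replicate 2 it was 0.15. Slc1a5 encodes ASCT2, a glutamine exchanger of growing cells, and read -0.032, 0.33 and 0.56, a mean of 0.28 (SE 0.12) that did not pass (adjusted p = 0.076). Of its 3 probes, that at 0.36 passed as higher when fitted alone (adjusted p = 0.022, limma), and those at 0.10 and 0.385 did not. Slc1a4 (ASCT1), whose promoter window is printed above, had a mean of 0.12 ± 0.46 (SD, n = 3).

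The astrocyte glutamate carriers Slc1a2 (GLT-1) and Slc1a3 (GLAST) had control means of -0.045 ± 0.22 (SD, n = 3) and 0.59 ± 0.90 (n = 3). For Slc1a3 the control arrays read 1.59, -0.15 and 0.32, with replicate 1 far above the others. Of its 2 probes, that at 1.11 passed as higher when fitted alone (adjusted p = 0.049, limma), and that at 0.067 did not. Slc1a6 (EAAT4, of Purkinje cells) and Slc1a7 (EAAT5, of retina) averaged -0.87 ± 0.79 (n = 3) and 0.47 ± 0.57 (n = 3). None of the 4 gene means passed.

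The Slc6 family takes up neurotransmitters, amino acids and osmolytes with sodium and chloride. Slc6a6 encodes the carrier of taurine, an osmolyte, and was higher than the reference at 0.87, 0.86 and 0.43 (mean 0.72, SE 0.11, adjusted p = 0.00030, limma). Slc6a11 encodes the GABA carrier GAT3 of astrocytes, and was lower at -0.58, -1.10 and -0.56 (mean -0.75, SE 0.12, adjusted p = 0.00040). Slc6a6 was above 0 and Slc6a11 below 0 on all 12 arrays. The remaining 10 tested Slc6 members did not pass, among them Slc6a8 (creatine) at 0.41 ± 0.12 (SD, n = 3), Slc6a9 (the glycine carrier GLYT1) at -0.069 ± 0.055 (n = 3), Slc6a2 (noradrenaline) at 0.27 ± 0.28 (n = 3) and Slc6a13 (the GABA carrier GAT2) at -0.79 ± 0.36 (n = 3).

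The proton-coupled Slc36 carriers split. Slc36a3 was higher at 0.40, 0.58 and 1.26 (mean 0.75, SE 0.28, adjusted p = 0.048, limma), but this call passed in only 7 of 21 alternative settings and without control replicate 3 the mean was 0.49 (adjusted p = 0.27). Slc36a4 was lower at -0.70, -0.74 and -0.41 (mean -0.61, SE 0.12, adjusted p = 0.0018). That call was lost when the gene's other probe, blank on 1 array, was averaged in (-0.16, adjusted p = 0.50). Slc36a1, which exports amino acids from lysosomes, had a mean of -0.22 ± 0.064 (SD, n = 3) and did not pass. In the Slc43 family, Slc43a3 was lower at -0.59, -0.97 and -0.52 (mean -0.69, SE 0.24, adjusted p = 0.033), a call lost without any single control array (adjusted p 0.064 to 0.17), and Slc43a2 (LAT4) averaged -0.20 ± 0.057 (n = 3).

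Over all 21 alternative settings, 6 members stayed higher than the reference (Slc38a2, Slc38a3, Slc38a4, Slc6a6, Slc7a5 and Slc7a8) and 2 lower (Slc6a11 and Slc7a14). In the setting with probes fitted alone, a member counted as passing when any 1 of its probes passed. Slc7a8 passed there through 1 probe while its other probe did not, so that setting could not expose the disagreement. Markers of other tissues that use these carriers were set beside them. Of 7 neuron markers tested, 1 was higher than the reference and 2 lower. Of 5 astrocyte markers 1 was higher and 2 lower, and of 6 kidney and gut epithelium markers 1 was higher and 3 lower. Over all genes, 26.5% were higher and 19.6% lower, and lists this short cannot be told from those shares. The control means ran from -0.74 to 1.58 in the neuron list, from -1.04 to 1.61 in the astrocyte list and from -1.50 to 1.66 in the epithelium list. The highest of each, Slc17a7 (itself a glutamate carrier), S100b and Cubn, are named after their values were seen. Their part in the transporter ratios was not tested. Since no dyes were exchanged, dye bias of a probe and a true difference from the reference cannot be told apart.

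Probes of the same gene often gave different ratios. Of the 14 transporters with at least 2 probes measured on every array, 6 had probes on both sides of 0 in controls, and the median distance between a gene's highest and lowest probe was 0.63. Over all 3855 genes with such probes the distance was 0.57, and 47.2% had probes on both sides of 0. The widest distance belonged to Slc7a8: one probe averaged 1.54 ± 0.10 (SD, n = 3) and the other -0.044 ± 0.31 (n = 3), so its call rests on 1 probe. Both Slc38a4 probes were above the reference, at 1.19 ± 0.61 (n = 3) and 2.32 ± 0.38 (n = 3), and so were both Slc38a2 probes, at 1.52 ± 0.44 (n = 3) and 0.90 ± 0.16 (n = 3). The 3 probes of Slc7a7 ran from -0.38 to 0.99, and those of Slc7a4 from -0.81 to 0.25. For Slc6a2, the probe used had a mean of 0.27, while another that was blank on 1 array stood at -1.11 and passed as lower when fitted alone (adjusted p = 0.020, limma). The second Slc36a4 probe, blank on 1 array and not used, read 0.30 ± 0.64 (n = 3) in controls, against -0.61 for the probe used, and its difference at 1 µM was -1.25 (SE 0.46) where that of the probe used was -0.024 (SE 0.18); neither passed (adjusted p = 0.999).

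**Figure D2:**
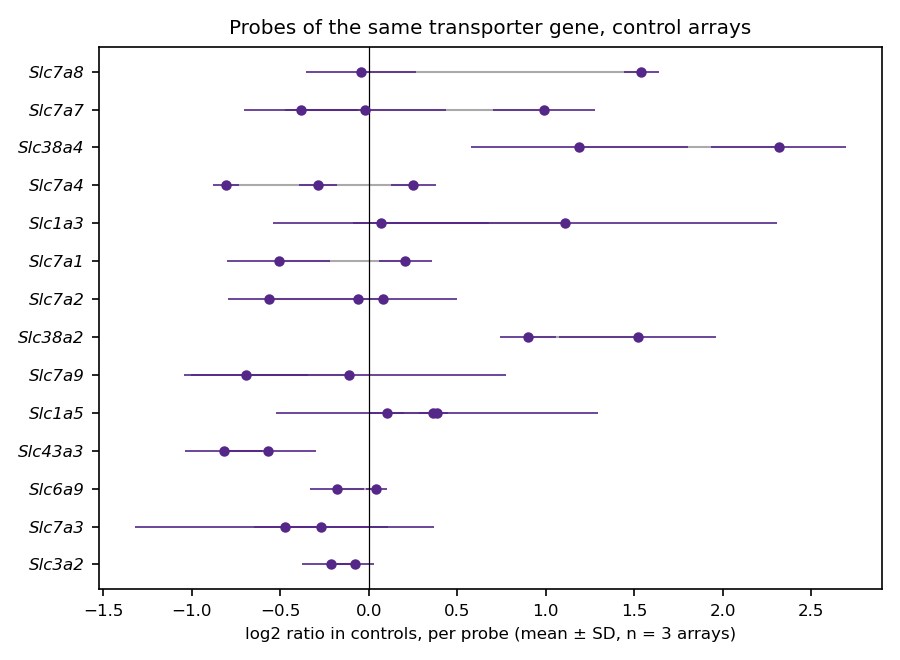
Mean log2 ratio over the reference in controls (SD over 3 arrays) for each probe of the 14 transporters that had at least 2 probes measured on every array. Grey lines join the probes of a gene, ordered by their distance, from 1.58 for Slc7a8 to 0.14 for Slc3a2.

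No transporter passed the test at any dose of Shld1. The count was 0 of 44 members at 10 nM, 100 nM and 1 µM and in the F test over the doses (limma, adjusted p under 0.05; background 0%, 0 of 14523 genes in each). With an unadjusted p under 0.05 there were 2 members at 10 nM (background 2.48%), 1 at 100 nM (3.02%), 1 at 1 µM (4.26%) and 1 in the F test (2.91%). The 3 comparisons share the control arrays, and 3 arrays against 3 cannot go below 0.10 in a two-sided exact permutation test. The median difference of the members from control was 0.041, 0.013 and -0.0063 in order of dose, and that of all genes -0.0077, 0.018 and -0.015. Members below control numbered 17, 21 and 23 of 44 (38.6%, 47.7% and 52.3%), where 51.6%, 46.1% and 53.0% of all genes were. In bulk RNA, a change in the share of cells that make a transcript and a change in RNA per cell cannot be told apart.

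The precision of a single member bounds what could have been seen. The median SE of a member's difference was 0.19. The 95% interval lay within a 2-fold change in either direction (log2 -1 to 1) for 34 members at 10 nM, 36 at 100 nM and 32 at 1 µM of the 44, or 77.3%, 81.8% and 72.7%, against 84.8%, 84.8% and 83.0% of all genes. For these members a change of 2-fold or more is outside the interval, and for the others it is not. For the widely used carriers the intervals at 1 µM were narrow: -0.24 to 0.35 for Slc3a2, -0.28 to 0.41 for Slc7a5, -0.30 to 0.41 for Slc7a1, -0.16 to 0.59 for Slc1a5 and -0.71 to 0.054 for Slc38a2. For Slc7a11 the interval was -0.78 to 2.01, too wide to bound a 2-fold change.

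**Figure D3:**
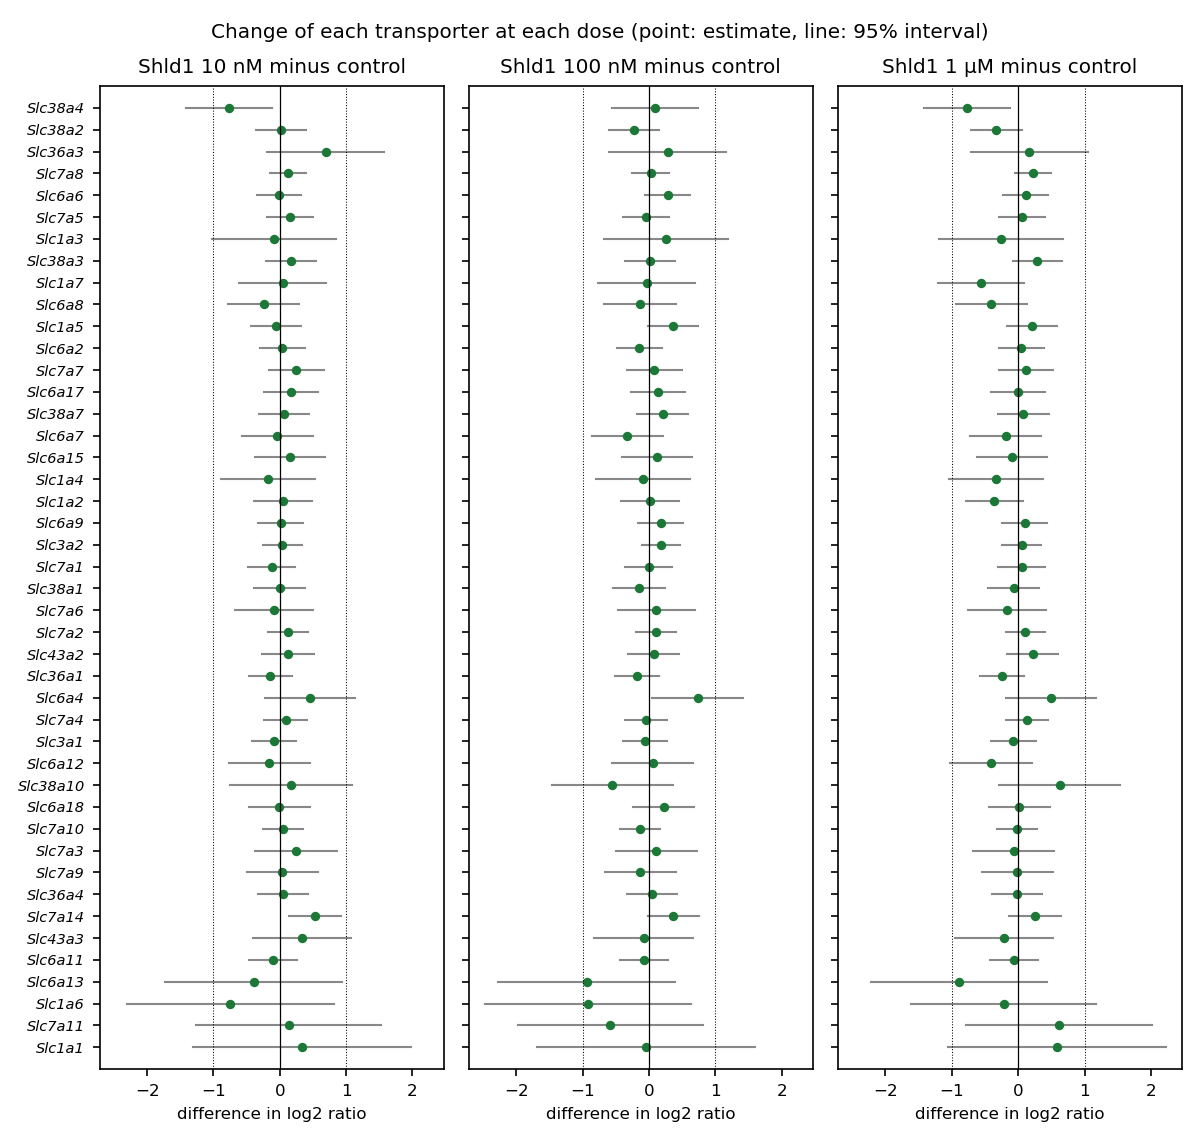
Difference in log2 ratio from control for the 44 tested transporters at Shld1 10 nM, 100 nM and 1 µM, with 95% intervals from limma, in the order of their control ratio. Dotted lines mark a 2-fold change, and the estimates run from -0.94 to 0.73.

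Slc38a4 had the smallest p of all members at 1 µM and in the F test. At 10 nM it read 0.86, 1.00 and 1.08, at 100 nM 1.61, 1.34 and 2.60 and at 1 µM 1.29, 1.04 and 0.60, against 2.04, 1.76 and 1.46 in controls. All arrays at 10 nM and at 1 µM lay below every control array, while those at 100 nM overlapped the controls and held the highest value of the study. The differences were -0.77 (SE 0.30, unadjusted p = 0.024), 0.097 (SE 0.30) and -0.78 (SE 0.30, unadjusted p = 0.023) in order of dose, and the F test gave an unadjusted p = 0.017, and the smallest adjusted p of any member was 0.999 (limma). Its probes differed in size at 10 nM (-0.39 and -1.15) and were closer at 1 µM (-0.72 and -0.83). Markers of cell types varied over the same groups. Of 12 fibroblast markers, 11, 6 and 10 lay below control at 10 nM, 100 nM and 1 µM, with median differences of -0.094, -0.027 and -0.33. Lum (the collagen-binding proteoglycan lumican) is named because its difference at 1 µM was the largest of this list. It differed by -0.98, -1.07 and -1.26 (SE 0.47) in order of dose, so it was below control at 100 nM too, where Slc38a4 was not. Vim and Fn1 lay above control at 1 µM, by 0.16 and 0.075. Of 6 leukocyte markers, 1, 3 and 1 lay below, with median differences of 0.49, -0.030 and 0.52 from levels far below the reference. Over all genes, 51.6%, 46.1% and 53.0% lay below control. Median differences at 1 µM were 0.12 in the astrocyte list, 0.088 in the kidney and gut epithelium list and -0.034 in the neuron list. No marker of these lists passed at any dose (limma). With an unadjusted p under 0.05 there were 0, 1 and 3 fibroblast and 1, 0 and 1 leukocyte markers in order of dose. There were also 1, 0 and 2 of 5 astrocyte markers, 0, 0 and 1 of 6 epithelium markers and 0 of 7 neuron markers at each dose. The shares over all genes were 2.48%, 3.02% and 4.26%. The part of these markers in the Slc38a4 values was not tested.

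The other system A carrier furthest above the reference, Slc38a2, read 1.30, 1.31 and 1.07 at 10 nM, 0.88, 0.94 and 1.12 at 100 nM and 1.07, 0.94 and 0.63 at 1 µM. The groups overlapped the controls at each dose, and the differences were 0.016, -0.23 and -0.33 (SE 0.17, unadjusted p = 0.085 at 1 µM, limma). Slc38a3 read 0.40, 0.79 and 0.89 at 10 nM, 0.34, 0.55 and 0.72 at 100 nM and 0.64, 0.95 and 0.84 at 1 µM. Its values at 1 µM overlapped those of controls at the edge, a difference of 0.29 (SE 0.17). Slc38a10 read -0.28, 0.73 and -1.01 at 10 nM, -0.60, -1.43 and -0.70 at 100 nM and -0.23, 0.46 and 0.57 at 1 µM, and spread so widely within groups that its difference at 1 µM, 0.62, had an SE of 0.42.

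The leucine exchangers and their heavy chain differed little from control. Slc7a5 read 0.86, 0.76 and 0.74 at 10 nM, 0.57, 0.64 and 0.54 at 100 nM and 0.91, 0.54 and 0.64 at 1 µM, mostly within the control range. Slc3a2 read -0.16, 0.032 and -0.20 at 10 nM, -0.054, -0.048 and 0.20 at 100 nM and -0.12, -0.014 and -0.14 at 1 µM. At 100 nM all of its arrays were above every control array, by a mean of 0.18 (SE 0.13, unadjusted p = 0.20, limma). Slc7a8 read 0.96, 0.80 and 0.85 at 10 nM, 0.75, 0.85 and 0.73 at 100 nM and 0.99, 0.99 and 0.94 at 1 µM, and all arrays at 1 µM were above all controls, a difference of 0.23 (SE 0.13, unadjusted p = 0.096).

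The cystine exchanger Slc7a11 was among the most variable members. It read -1.17, -2.22 and 0.20 at 10 nM, -3.25, -0.98 and -1.12 at 100 nM and -0.71, -0.11 and -0.92 at 1 µM. The arrays at 10 nM spread beyond the controls on both sides, 1 array at 100 nM lay far below them, and those at 1 µM just cleared the highest control array. The difference at 1 µM was 0.61 (SE 0.64, unadjusted p = 0.35, limma), well within its error.

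Among the lysosomal and cationic relatives, Slc7a14 had the smallest p at 10 nM. Its arrays read -0.25, -0.15 and 0.0030 at 10 nM, above every control array, then -0.015, -0.47 and -0.42 at 100 nM and -0.49, -0.54 and -0.24 at 1 µM, which overlapped the controls. The differences were 0.54 (SE 0.18, unadjusted p = 0.011), 0.37 and 0.25 (limma), largest at the lowest dose. Slc7a1 (CAT1) read -0.34, -0.12 and -0.36 at 10 nM, -0.20, -0.072 and -0.20 at 100 nM and -0.36, 0.10 and -0.040 at 1 µM, within or near the control range throughout.

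The glutamine exchanger Slc1a5 read 0.19, 0.18 and 0.32 at 10 nM, 0.69, 0.60 and 0.64 at 100 nM and 0.67, 0.58 and 0.24 at 1 µM. All arrays at 100 nM were above all controls, by a mean of 0.36 (SE 0.17, unadjusted p = 0.059, limma), and those at 1 µM overlapped them. Slc1a2 read 0.21, -0.40 and 0.22 at 10 nM, 0.13, -0.23 and 0.0050 at 100 nM and -0.60, -0.33 and -0.28 at 1 µM, and its 3 arrays at 1 µM were below all controls, a difference of -0.36 (SE 0.20). Slc1a7 read 0.70, 0.54 and 0.31 at 10 nM, 0.40 and 0.47 on the 2 arrays with a value at 100 nM, and -0.44, -0.26 and 0.43 at 1 µM, a difference there of -0.56 (SE 0.29). Slc1a6 had values of -1.68 and -1.57 on 2 arrays at 10 nM, -1.84 and -1.75 on 2 arrays at 100 nM and -1.74, 0.54 and -2.09 at 1 µM, against -1.59, -0.029 and -0.999 in controls. Its arrays at 100 nM were below all controls and its difference at 10 nM was -0.75 (SE 0.70). Slc1a1 read -2.22, -1.08 and -0.27 at 10 nM, -0.70, -3.57 and -0.46 at 100 nM and -0.99, -0.83 and -0.998 at 1 µM, and its pooled SD within groups, 1.10, exceeded every difference from control.

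The serotonin carrier Slc6a4 was the 1 member with an unadjusted p under 0.05 at 100 nM. It read -1.07, -0.083 and 0.33 in controls, 0.46, 0.22 and -0.14 at 10 nM, 0.78, 0.44 and 0.15 at 100 nM and 0.40, 0.19 and 0.075 at 1 µM. Control replicate 1 was far below the other controls, which overlapped every dose group. The difference at 100 nM was 0.73 (SE 0.31, unadjusted p = 0.037, limma), and without control replicate 1 it was 0.34. The proline carrier Slc6a7 read -0.22, 0.018 and 0.60 in controls, -0.23, 0.15 and 0.37 at 10 nM, -0.19, -0.29 and -0.11 at 100 nM and -0.24, 0.36 and -0.28 at 1 µM, and the dose groups overlapped the controls. The GABA carrier Slc6a13 read -1.18, -0.48 and -0.71 in controls, -1.51, -1.57 and -0.48 at 10 nM, -2.59, -1.12 and -1.49 at 100 nM and -0.58, -3.29 and -1.20 at 1 µM, and its difference at 100 nM, -0.94, had an SE of 0.61.

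For the taurine carrier Slc6a6 the arrays read 0.62, 0.74 and 0.78 at 10 nM, 1.01, 0.90 and 1.10 at 100 nM and 0.84, 0.96 and 0.71 at 1 µM. Those at 100 nM were above all controls, by 0.28 (SE 0.15, unadjusted p = 0.094, limma). The astrocyte GABA carrier Slc6a11 was steady, at -0.80, -0.91 and -0.83 at 10 nM, -0.69, -0.99 and -0.78 at 100 nM and -0.78, -0.91 and -0.74 at 1 µM. Slc36a3 read 0.59, 1.36 and 2.38 at 10 nM, 0.92, 0.74 and 1.43 at 100 nM and 0.51, 1.29 and 0.96 at 1 µM, and at 10 nM 1 array stood high above the rest. Slc36a4 read -0.63, -0.45 and -0.64 at 10 nM, -0.70, -0.76 and -0.22 at 100 nM and -0.78, -0.58 and -0.55 at 1 µM, all within or near the control range. Slc43a3 read -0.96, -0.54 and 0.43 at 10 nM, -0.93, -0.85 and -0.55 at 100 nM and -1.38, -0.33 and -1.02 at 1 µM, with 1 array at 10 nM on the other side of 0.

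**Figure D4:**
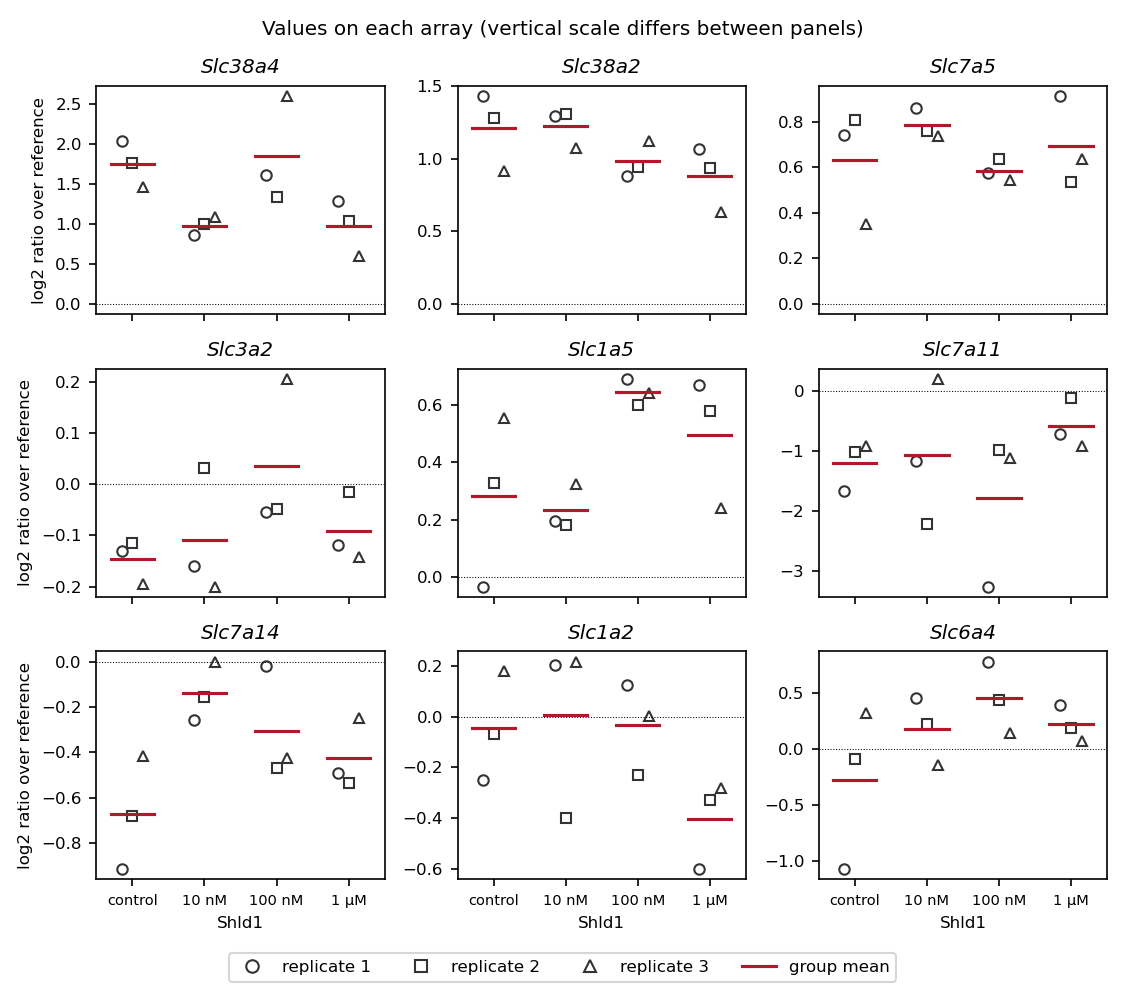
Log2 ratio over the reference on each array for 9 transporters, with control and the 3 Shld1 doses on the horizontal axis, symbols for the replicate number and a red line for the group mean. The vertical scale differs between panels; Slc38a4 at 10 nM and 1 µM lies below all controls, while at 100 nM it spans 1.34 to 2.60.

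Some members had all arrays of a dose outside the control range, at shares around those of all genes. At 10 nM, 1 member lay wholly below the controls (Slc38a4; background 3.66%) and 2 wholly above (Slc6a17 and Slc7a14; 3.48%). At 100 nM, 2 lay below (Slc1a6, on 2 arrays, and Slc36a1; 3.99%) and 4 above (Slc1a5, Slc3a2, Slc6a6 and Slc38a7; 4.24%). At 1 µM, 3 lay below (Slc1a2, Slc6a8 and Slc38a4; 4.81%) and 3 above (Slc7a4, Slc7a8 and Slc7a11; 3.68%). The members' shares ran from 2.27% to 9.09%, and the share furthest from its background was that above the controls at 100 nM. Slc38a4 was the 1 member listed at more than 1 dose. By family, the median difference at 1 µM ran from -0.26 in Slc1, with 5 of 7 members below control, to 0.085 in Slc7, with 4 of 12 below.

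Transporters differed widely in how much their values varied between arrays. The spread between arrays of a group (pooled SD) had a median of 0.22 and ran from 0.081 for Slc7a8 to 1.10 for Slc1a1, and it was above 0.5 for 7 members. This spread is of the gene value and leaves out disagreement between probes, which was widest for Slc7a8 (a distance of 1.58). Of the 44, 7 were above 0 on all their arrays, 9 below 0 on all, and 28 on both sides.

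The remaining 11 members had too few values to test, which required 2 of 3 arrays in every group. Slc6a5 (the glycine carrier GLYT2) and Slc7a15 had no value on any array. Slc6a3 (dopamine), Slc7a12 and Slc7a13 had values on 1 or 2 arrays, and all were below -1. Slc38a9, the lysosomal arginine-responsive carrier of mTORC1 signalling, had values on 8 arrays, with a control mean of -1.03 ± 1.03 (SD, n = 3). Slc38a11 had values on 7 arrays, all above 0, from 0.36 to 1.32. Slc6a14, Slc6a19, Slc36a2 and Slc38a5 had values on 4 to 8 arrays. A blank spot may be dim, flagged or damaged, so these genes are not called absent.

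Genes that respond to amino acid supply did not pass at any dose either. Of 23 tested members of the list of GCN2 and ATF4 response genes, 0 passed at 10 nM, 100 nM or 1 µM (limma). At each dose 1 had an unadjusted p under 0.05, the same gene, Cebpg, each time. Over all genes the shares were 2.48%, 3.02% and 4.26%, the background for the unadjusted counts of the lists that follow too. In order of dose, 9, 8 and 4 of the 23 were below control, where 51.6%, 46.1% and 53.0% of all genes were. The median difference of the list at 1 µM was 0.13, against -0.015 for all genes. Cebpg, a C/EBP transcription factor of that response, had a control mean of -1.11 ± 0.47 (SD, n = 3) and a mean at 1 µM of -0.056 ± 0.43 (n = 3), a difference of 1.06 (SE 0.26, unadjusted p = 0.0019, adjusted p = 0.999, limma). It differed by 0.82 at 10 nM (unadjusted p = 0.0092, limma) and by 0.67 at 100 nM (unadjusted p = 0.027). All of these differences are taken from the same low control arrays. Chac1, a glutathione-degrading ATF4 target, differed by -1.63 (SE 0.86), Nupr1, a stress-induced regulator of transcription, by 0.34 (SE 0.26) and Stc2, a secreted glycoprotein, by 0.20 (SE 0.16). Against the reference in controls, 3 of the 23 were higher and 9 lower, with a list median of -0.26. Over all genes, 26.5% were higher and 19.6% lower, the background for this list and for those that follow. From each of these lists, the genes given by name are the 4 with the smallest unadjusted p at 1 µM, so they do not represent their list.

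Amino acid sensing by mTORC1, the kinase complex that couples amino acid supply to growth, was read by 23 tested genes. None passed at any dose (limma; 0, 0 and 1 with an unadjusted p under 0.05 in order of dose), and the median difference at 1 µM was -0.064. Flcn, which encodes folliculin, a regulator of the Rag GTPases, differed by -0.50 (SE 0.18) at 1 µM. Depdc5 and Nprl2, subunits of the GATOR1 complex that restrains mTORC1, differed by 0.37 (SE 0.22) and 0.27 (SE 0.22), and Sesn3, a sestrin, by -0.26 (SE 0.18). In controls 9 of the 23 were higher than the reference and 2 lower (26.5% and 19.6% of all genes).

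Enzymes that use the carried amino acids gave a similar count. Of 17 tested genes of glutamine, glutamate, branched-chain and cysteine metabolism, 0 passed at any dose (limma; 0, 0 and 1 unadjusted), with a median difference of 0.11 at 1 µM. There Gpt2, an alanine transaminase of mitochondria, differed by 0.49 (SE 0.19), the cytosolic Gpt by 0.59 (SE 0.38), the arginase Arg2 by -0.69 (SE 0.36) and glutamate dehydrogenase, Glud1, by -0.20 (SE 0.16). In controls 5 of the 17 were higher and 6 lower (26.5% and 19.6% of all genes).

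Carriers of amino acids and peptides in other families, or with symbols outside the rule, numbered 20 tested genes. None passed at any dose (limma; 1, 1 and 0 unadjusted), and the median difference at 1 µM was 0.010. The mitochondrial carriers Slc25a15 (ornithine) and Slc25a38 (glycine) differed by 0.28 (SE 0.16) and -0.34 (SE 0.23), the vesicular GABA carrier Slc32a1 by -0.59 (SE 0.35) and the peptide carrier Slc15a2 by -0.37 (SE 0.37). In controls 6 of the 20 were higher and 7 lower (26.5% and 19.6% of all genes).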

How the data were processed

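The authors deposited 1 log2 ratio per probe and array, taken here as Cy5 over Cy3. Per the labels' protocols, an Axon instrument scanned the 2-colour arrays. The sources used here do not give how background and dyes were corrected, and the scale (log base), centring and direction of the deposited table are not stated. Each array was centred on its median. For a gene, probes complete over the 12 arrays were averaged; where no probe was complete, the one with most values was used. Genes needed at least 2 values in every group. All 14523 such genes were fitted with limma 3.58.1 (R 4.3.3) on the 4 groups, with Benjamini-Hochberg adjustment, after tests on simulated data. Values on every array were given for members chosen by smallest p at each dose, by control ratio among called members, and for 6 widely used carriers. The families and gene lists were chosen with earlier results of these data known; a symbol rule then gave the members. From each list the 4 genes with the smallest p at 1 µM were named. Promoters were read with Python 3.11.15.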

Additional observations from a re-analysis of the deposited data

How the results depend on the processing

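In 21 alternative settings (other centring, scaling, filters, probe handling, variance, the replicate block and leaving out each array), the number of members called against the reference ran from 10 to 22, against 16. Leaving out 1 array gave 10 to 17 members, 3 to 10 of them lower. The 3 settings that left out a control array gave 4, 3 and 5 lower members (replicates 1, 2 and 3), against 9. With the ratios as deposited 16 were lower, and with probes fitted alone 20 were called. In the setting with probes fitted alone, a member counted when any 1 of its probes passed, so 20 is not a like count to the 16 of the main fit. The higher members numbered 6 to 9. Slc6a2 turned from 0.27 to -0.17 with probes fitted alone, where 1 of its probes passed as lower. Counts for the 3 doses and the F test were 0 in every setting. For the replicate numbers, deviations of 12984 genes from their group mean were correlated between arrays of different groups. Same-numbered pairs ran from -0.11 to 0.28, with 10 of 18 over 0.1, and the 36 differently numbered pairs from -0.34 to 0.20. Same-numbered arrays were not treated as paired, because the labels do not say what a replicate number shares. The data hint at something shared all the same. In these deviations 8 of 12 arrays correlated best with an array of their own number, and the array numbers in the titles run in consecutive blocks by replicate number. Under the replicate block 16 members were again called and 0 at any dose, but Slc7a4 was lost (adjusted p = 0.055, limma) and Slc1a6 passed as lower (-0.87, adjusted p = 0.047). Depth is not defined for arrays, and blank spots left 11 members untested.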
